A study of Mus musculus with 4 samples.

Results

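The endothelial junction and adhesion genes are 9 genes whose proteins hold the cells of a vessel wall together or catch leukocytes on it. They were taken by name as Cldn5, Ocln, Tjp1, Cdh5 and Pecam1, here called the junction genes, and Icam1, Vcam1, Sele and Selp, here called the adhesion genes. All 9 were on the array, through 14 of its 41174 gene probes, and they are 9 of 33269 features, of which 16534 carry a gene symbol. A feature is a gene, represented by its brightest probe, or a probe without a symbol.

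The samples came from male C57BL/6J mice, 9 weeks old, in which the middle cerebral artery was occluded permanently with a filament and 1 µl of saline was injected into a ventricle directly afterwards. At 6 h, RNA was taken from ischemic core, healthy core, ischemic penumbra and healthy penumbra, the core being the territory that the occlusion hits hardest and the penumbra its rim. Each region had 2 two-colour arrays, all 4 arrays being on 1 slide, with ischemic and healthy RNA of the same region in opposite dyes: the ischemic RNA was in Cy5 on core array 1 and penumbra array 3 and in Cy3 on core array 2 and penumbra array 4. The labels speak of 3 mice per group, without saying whether they were pooled, whether the 2 arrays of a region held different extracts, or whether healthy tissue was the other hemisphere or another animal. All groups received the saline injection as far as the labels say.

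Brain endothelium differs from that of most organs in its closed cell contacts. Claudin-5 and occludin span the membrane at tight junctions and the zonula occludens protein encoded by Tjp1 anchors them to the cytoskeleton, while VE-cadherin, the product of Cdh5, and PECAM-1 join the same cells at their other contacts. Inflamed endothelium displays selectins, on which leukocytes roll, and then the immunoglobulin-type ligands ICAM-1 and VCAM-1, to which leukocyte integrins attach. P-selectin is also stored ready-made in endothelial granules and platelets, so its surface display does not require new transcript.

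The sequences around the annotated starts of 3 adhesion genes are shown, for these reasons. Icam1 had the largest core ratio, Selp the largest difference between tissue pieces, and Sele, its neighbour on the same chromosome, stayed at background. Each runs 5′ to 3′ on the gene's own plus strand, covers 250 bases before and 50 from the annotated start, and comes from RefSeq on build GRCm38.p6. Capitals mark matches to the TATA box TATAAA or the AP-1 site TGANTCA, searched on both strands.
Icam1, chr9:21015690-21015989: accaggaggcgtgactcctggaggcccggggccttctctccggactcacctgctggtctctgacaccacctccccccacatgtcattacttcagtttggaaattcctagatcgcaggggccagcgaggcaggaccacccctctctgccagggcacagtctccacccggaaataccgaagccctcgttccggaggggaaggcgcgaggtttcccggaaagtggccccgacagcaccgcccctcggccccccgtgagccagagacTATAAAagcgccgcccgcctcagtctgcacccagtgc
Selp, chr1:164115014-164115313: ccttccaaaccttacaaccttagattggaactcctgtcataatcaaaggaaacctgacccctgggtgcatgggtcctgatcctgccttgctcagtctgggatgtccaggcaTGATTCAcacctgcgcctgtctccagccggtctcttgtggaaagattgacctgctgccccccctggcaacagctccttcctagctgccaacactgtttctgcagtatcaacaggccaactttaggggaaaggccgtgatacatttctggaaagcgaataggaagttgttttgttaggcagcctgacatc
Sele, chr1:164047984-164048283: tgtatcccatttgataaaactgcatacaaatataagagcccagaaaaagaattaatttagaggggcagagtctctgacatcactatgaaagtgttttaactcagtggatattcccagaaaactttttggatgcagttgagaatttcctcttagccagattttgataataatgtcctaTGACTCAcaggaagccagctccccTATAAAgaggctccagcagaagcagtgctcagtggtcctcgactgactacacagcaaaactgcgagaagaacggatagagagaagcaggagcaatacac

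Promoter entries were found for 6 of the genes, Ocln having 2, which makes 7 windows. The letters TATAAA were in 2 of these 7, those of Icam1 and Sele, and in 13.6% of all 32851 promoters of the reference table. In Sele they lay at -49 to -44 from the annotated start. In Icam1 they lay at 13 to 18, after that start and not upstream of it. The AP-1 site was in 2 of 7, those of Sele and Selp, and in 7.81% of all promoters. The NF-kappaB consensus was searched only as GGG, a purine, 2 of any base, 2 pyrimidines and CC. It matched none of the 7 windows and 8.46% of all promoters. Sequences that depart from this pattern, such as those without GGG, were not searched for, so sites of other forms may be present. These are matches of letters within short windows and nothing was measured at them.

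At 6 h none of the 8 measurable genes changed between ischemic and healthy tissue by the size required for a call, in core or in penumbra. A gene was called if its mean over the dye-swapped pair was 2-fold or more and each array on its own gave 1.5-fold or more with that sign. The pair was counted as 1 replicate, so size alone decided, and each SD below is that between the 2 arrays of a region. A pair holds both dye orientations, so its SD includes any dye effect, which the mean of the pair cancels. The background to that count was small: 0.31% of 24537 features were called in core and 0.245% of 24926 in penumbra, so 0 of 8 is near what the array as a whole gave. The largest ratio among the genes was that of Icam1 in core, 1.24-fold, and the lowest that of Pecam1 in core, 0.924-fold. The median log2 ratio over the 8 genes was 0.09 in core and 0.03 in penumbra, against -0.01 over all features in both regions. In such tissue pieces, fewer endothelial cells and less RNA per cell cannot be told apart.

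**Figure D1:**
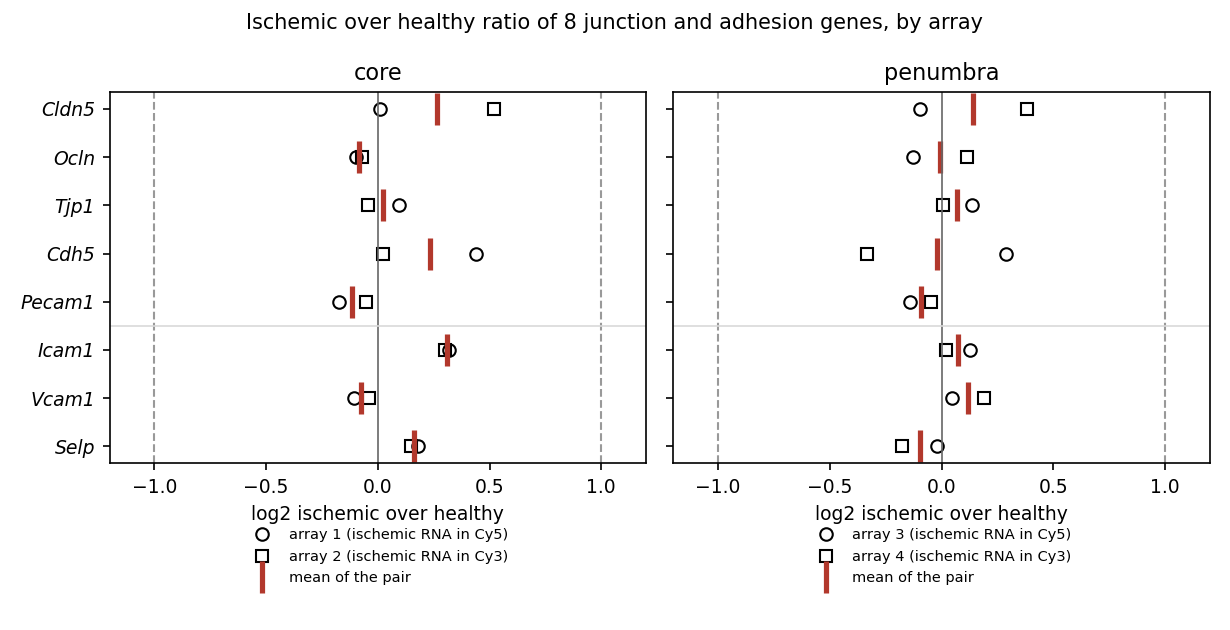
Log2 ratio of ischemic over healthy tissue (x axis) for the 8 genes measured above background (rows, junction genes above the grey line, adhesion genes below it), in core on the left and penumbra on the right. Circles and squares are single arrays of opposite dye orientation, red bars the mean of the pair and dashed lines the 2-fold size of a call; every point lies inside the dashed lines, and the arrays of a pair lie closest for Icam1, Ocln and Selp in core.

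Claudin-5 is the main strand-forming claudin of brain endothelium. The log2 ratio of Cldn5 was 0.01 and 0.52 on core arrays 1 and 2, and -0.10 and 0.38 on penumbra arrays 3 and 4. In both regions the array with ischemic RNA in Cy3 was the higher one, by about as much, so the ratio carried a dye effect, estimated at -0.26 in core and -0.24 in penumbra. The means were 0.27 ± 0.36 in core and 0.14 ± 0.34 in penumbra (SD, n = 2 arrays each), smaller than the spread between the arrays. Its level, given here and below as the log2 intensity of 1 channel after normalization, was 12.90 ± 0.17 in ischemic core and 12.64 ± 0.19 in healthy core. It was 12.87 ± 0.04 in ischemic penumbra and 12.73 ± 0.29 in healthy penumbra, and from the highest piece (ischemic core) to the lowest (healthy core) the arrays of neighbouring pieces overlapped.

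Occludin is the other membrane protein of the tight junction measured here. Ocln had log2 ratios of -0.10 and -0.07 in core and of -0.13 and 0.11 in penumbra. The core arrays lay together just below 0, with a mean of -0.08 ± 0.02, and the penumbra arrays on both sides of it, with a mean of -0.01 ± 0.17. Its level ranged over only 0.08 log2 across the 4 tissue pieces, the narrowest range of the 8 genes. It was 7.34 ± 0.05 in ischemic core, 7.43 ± 0.03 in healthy core, 7.35 ± 0.11 in ischemic penumbra and 7.36 ± 0.06 in healthy penumbra. The second Ocln probe was not well above background on any array.

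Tjp1 encodes the scaffold beneath the strands. Its log2 ratios were 0.10 and -0.05 in core and 0.14 and 0.00 in penumbra, with means of 0.03 ± 0.10 and 0.07 ± 0.09. None of these exceeded the spread between arrays. Its level stood apart on 1 array: it was 10.12 in ischemic core and 10.02 in healthy core on array 1, while array 2 gave 10.95 and 10.99. In penumbra it was 10.86 and 10.87 in ischemic tissue and 10.72 and 10.86 in healthy tissue, inside the range of the core arrays. The shift of 0.90 log2 between the core arrays, common to both tissues, was matched in size by 1.37% of features, and it drops out of the ratios. A second, dimmer Tjp1 probe did not show it, with 7.62 and 7.43 in ischemic core and 7.62 and 7.52 in healthy core.

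VE-cadherin is the adhesion molecule of endothelial adherens junctions. Cdh5 had log2 ratios of 0.44 and 0.03 in core and of 0.29 and -0.33 in penumbra. Here the arrays with ischemic RNA in Cy5 were the higher ones, and the dye effect was estimated at 0.21 in core and 0.31 in penumbra. The means were 0.23 ± 0.29 and -0.02 ± 0.44, neither larger than the spread, to which the dye effect again added. Its level was 10.63 ± 0.07 in ischemic core, 10.40 ± 0.22 in healthy core, 10.53 ± 0.21 in ischemic penumbra and 10.55 ± 0.23 in healthy penumbra, and neighbouring pieces overlapped. A second Cdh5 probe with a smaller dye effect gave 0.23 and 0.12 in core and -0.14 and -0.18 in penumbra. Its means, 0.18 ± 0.07 and -0.16 ± 0.03, had opposite signs in the 2 regions with all arrays on their own side of 0, a split that the brighter probe did not show.

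PECAM-1 sits at endothelial cell borders and also on platelets and leukocytes. Pecam1 was below 0 on all 4 arrays, with log2 ratios of -0.18 and -0.05 in core and of -0.14 and -0.05 in penumbra. The means were -0.11 ± 0.09 and -0.09 ± 0.07, each only just larger than the SD. Its level was 8.16 and 8.18 in ischemic core, 8.33 and 8.23 in healthy core, 8.05 and 8.13 in ischemic penumbra and 8.19 and 8.18 in healthy penumbra. Healthy core was thus the highest piece and ischemic penumbra the lowest, with the other pieces nearly equal between them. The array prints its probe in 10 spots, and 0, 3, 0 and 2 of the 10 were above 0 on arrays 1 to 4. The SD over spots was 0.06, 0.10, 0.07 and 0.04, smaller than the distance between the array means of a region, although the spot values of the arrays overlapped.

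Icam1 had the largest core ratio of the 8 genes, and it was many times the SD between the arrays. A core mean larger than that SD was found for 5 of the 8 genes and for 45.1% of features. The log2 ratio of Icam1 was 0.32 and 0.30 on the core arrays and 0.13 and 0.02 on the penumbra arrays. Both core arrays lay above both penumbra arrays, and the means were 0.31 ± 0.01 in core (1.24-fold) and 0.07 ± 0.08 in penumbra. In core 4.67% of features had a higher ratio. Its level was 7.11 and 7.19 in ischemic core, 6.79 and 6.88 in healthy core, 7.06 and 7.06 in ischemic penumbra and 6.93 and 7.04 in healthy penumbra. The order was therefore ischemic core, ischemic penumbra, healthy penumbra and healthy core, with no overlap between neighbours, although the gap was as small as that between 7.06 and 7.04.

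Part of the larger core ratio of Icam1 lay on the healthy side. Ischemic core exceeded ischemic penumbra by 0.09 ± 0.06 log2, while healthy core was below healthy penumbra by a difference of -0.15 ± 0.01. The probe was dim, with raw spot signals of 157 and 136 in ischemic core and 103 and 140 in healthy core above a median background of 64 to 70. On Agilent's processed signals, which differ in background correction and dye normalization and have no added offset, the core ratio was 0.60 and 0.65 on the 2 arrays, a mean of 0.62 ± 0.03 or 1.54-fold; which of these steps moved it was not tested. The penumbra ratio on processed signals was 0.04 and 0.12, a mean of 0.08 ± 0.05.

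VCAM-1 is the ligand of an integrin of lymphocytes and monocytes. Vcam1 had log2 ratios of -0.11 and -0.04 in core and of 0.05 and 0.19 in penumbra. All core arrays were below 0 and all penumbra arrays above it, with means of -0.07 ± 0.05 and 0.12 ± 0.10. Its level was 11.17 ± 0.04 in ischemic core, 11.24 ± 0.09 in healthy core, 11.47 ± 0.12 in ischemic penumbra and 11.35 ± 0.02 in healthy penumbra. The penumbra pieces were thus the higher ones, without overlap with the core pieces, and the 2 core pieces overlapped. This order depended on the scaling between arrays (Aquantile): without it, the core minus penumbra difference was -0.12 between ischemic pieces and 0.07, with core the higher, between healthy pieces. A second Vcam1 probe gave ratios of 0.00 and -0.08 in core and 0.18 and 0.22 in penumbra.

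E-selectin appears on endothelium mainly after induction. The single Sele probe was not well above background in either tissue on any array, with raw signals between 65 and 77 in the 4 pieces where the median background was 64 to 71. It had no usable ratio and entered no comparison. A level below this detection limit cannot be distinguished from none, and a change within that range would not have been seen.

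P-selectin carries the first rolling contacts of leukocytes and binds platelets to them. Selp had log2 ratios of 0.18 and 0.15 in core and of -0.02 and -0.18 in penumbra. Both core arrays were above 0 and both penumbra arrays below it, with means of 0.16 ± 0.02 (1.12-fold) and -0.10 ± 0.11. Its probe is also printed 10 times: 10 of 10 spots were above 0 on each core array, 3 of 8 kept spots on array 3 and 0 of 10 on array 4. The SD over spots was 0.07 to 0.09 on every array. Spots of 1 array share their RNA, so they show the precision of the array and not that of the tissue. A second Selp probe was not well above background on any array.

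**Figure D2:**
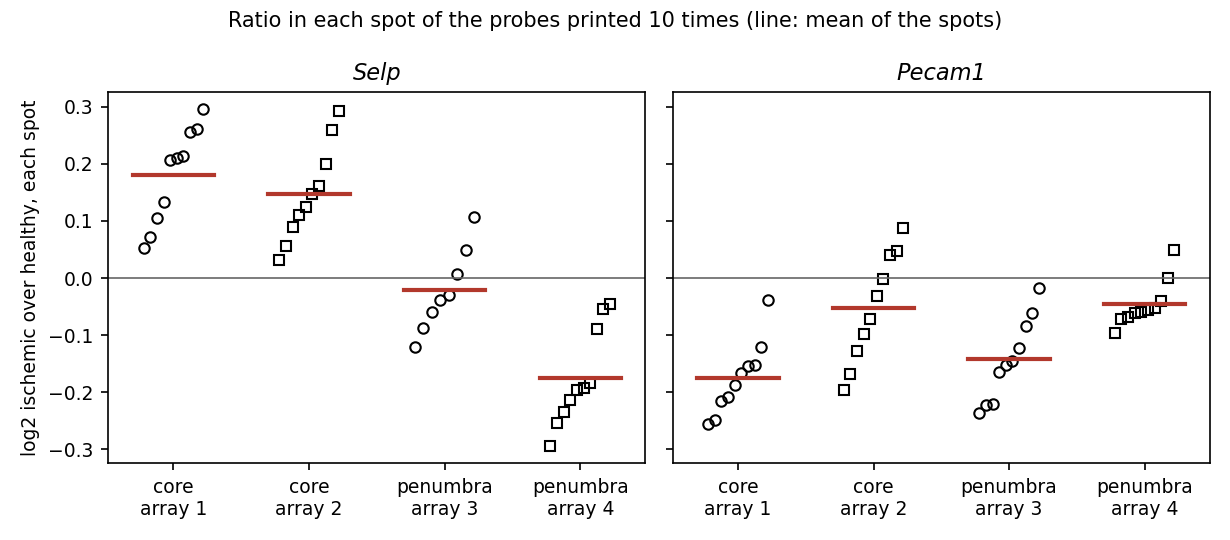
Log2 ratio of ischemic over healthy tissue (y axis) in every spot of the Selp and Pecam1 probes, by array (x axis), sorted from low to high within an array; red lines are the means of the spots. All Selp spots of both core arrays lie above 0 and all of penumbra array 4 below it, whereas most Pecam1 spots of every array lie below 0.

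Core and penumbra ratios were compared by their difference, called at 1 log2 or more where the core arrays both lay above, or both below, the penumbra pair. None of the 8 genes was called, beside 0.0594% of 25251 features. The core minus penumbra difference was 0.26 log2 for Selp, 0.26 for Cdh5, 0.24 for Icam1, 0.12 for Cldn5, -0.02 for Pecam1, -0.04 for Tjp1, -0.08 for Ocln and -0.19 for Vcam1. Icam1 and Selp had both core arrays above both penumbra arrays, as had 15.7% of all features, and Vcam1 had them below, as had 14.8%. Within a region, both core arrays were above 0 for 4 of 8 genes (Cldn5, Cdh5, Icam1 and Selp), beside 26.9% of features. Both were below 0 for 3 of 8 (Ocln, Pecam1 and Vcam1), beside 28% of features. In penumbra both arrays were above 0 for 3 of 8 (Tjp1, Icam1 and Vcam1), beside 30.3% of features, and both below for 2 of 8 (Pecam1 and Selp), beside 32.4%.

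A limma fit over the 4 arrays with a coefficient for the dye takes the shift that separates the orientations out of the error. Such a fit treats the arrays of a pair as replicates. Once both regions and the dye are fitted, the 4 arrays leave 1 degree of freedom per gene for the error, which limma moderates over all features. The p-values thus reflect how equal the dye effect was in both regions, which may be technical. They do not measure the spread within a pair or between animals. In core 4 of 8 genes passed an adjusted p below 0.05 at any size, beside 29% of features: Icam1 (limma adjusted p = 0.000469), Cldn5 (0.0012), Cdh5 (0.00487) and Selp (0.0224). In penumbra 1 of 8 passed, Cldn5 (limma adjusted p = 0.0261), beside 42.7% of features. For the difference 1 of 8 passed, Selp (limma adjusted p = 0.0373), beside 7.09% of features, while Cdh5 and Icam1 had 0.053 and 0.0533. Without the dye coefficient no gene passed, the lowest limma adjusted p being 0.126 for Icam1 in core, so each of these genes passed only in the fit with that coefficient.

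**Figure D3:**
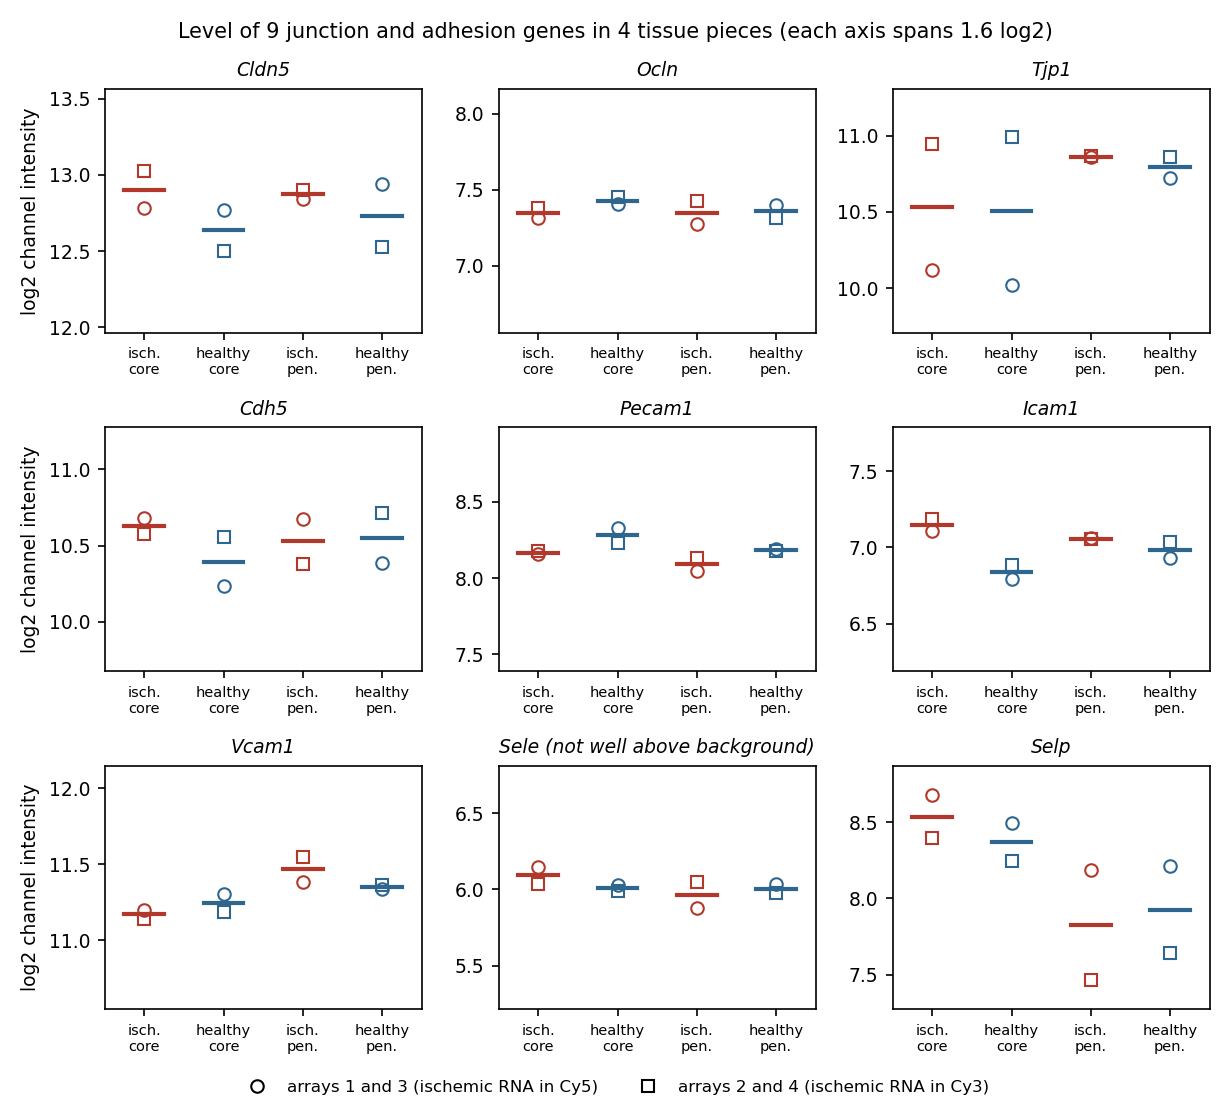
Level of each of the 9 genes as log2 channel intensity (y axis, the same span in every panel) in ischemic core, healthy core, ischemic penumbra and healthy penumbra (x axis). Symbols are single arrays, circles with ischemic RNA in Cy5 and squares with it in Cy3, bars the mean of 2; the widest spread between pieces is that of Selp, and the Tjp1 arrays of core lie far apart in both tissues.

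The widest range between tissue pieces was that of Selp. Its level was 8.68 and 8.39 in ischemic core, 8.50 and 8.25 in healthy core, 8.19 and 7.46 in ischemic penumbra and 8.21 and 7.64 in healthy penumbra. Every core value exceeded every penumbra value. Ischemic core exceeded ischemic penumbra by 0.49 within Cy5 and 0.93 within Cy3, a mean of 0.71 ± 0.31 (1.64-fold), and healthy core exceeded healthy penumbra by 0.29 within Cy3 and 0.61 within Cy5, a mean of 0.45 ± 0.23 (1.36-fold). Neither met the size of a call, here 2-fold in the mean and 1.5-fold in each dye.

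This difference leaned on penumbra array 4. There Selp was lower than on array 3 in both tissues, by a shift of -0.65 log2 that only 0.197% of features matched in size. From arrays 1 and 3 alone the difference was 0.49 between the ischemic and 0.29 between the healthy pieces. On Agilent's processed signals the difference was 0.99 between the ischemic and 0.65 between the healthy pieces. By the distance between their 8 centred channel values, the genes most like Selp among 13987 were Oosp3 (0.108 log2), Bco2 (0.113) and Pnpla6 (0.124).

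Of the other genes, Vcam1 was lower in ischemic core than in ischemic penumbra, by a difference of -0.18 and -0.41 in the 2 dyes and a mean of -0.30 ± 0.16. Its second probe gave -0.41 ± 0.01. Without Aquantile the mean was -0.12. Between the healthy pieces Vcam1 differed by -0.10 ± 0.10, which is no more than its spread. None of the 8 genes was called between ischemic core and ischemic penumbra, where 1.35% of features were, or between healthy core and healthy penumbra, where 1.13% were. The pieces differed in what they held: all 8 choroid plexus markers were called lower in core than in penumbra in both states, with summed intensities of 1594 in ischemic core on both arrays, 1660 to 1702 in healthy core, 35290 to 37970 in ischemic penumbra and 22360 to 23920 in healthy penumbra. Their part in the differences of Selp and Vcam1 was not tested.

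Other junction and adhesion genes were not called between ischemic and healthy tissue either. Of 18 other junction genes, 0 were called in core or in penumbra, with medians of 0.02 and 0.03 log2. The brightest, Ctnnb1 and Ctnna1, which encode the catenins that tie cadherins to actin, had -0.05 ± 0.21 and 0.05 ± 0.10 in core and -0.10 ± 0.28 and 0.04 ± 0.12 in penumbra. One of them, Cldn1, a claudin of epithelia, was called between pieces, lower in core than in penumbra by a log2 difference of -1.19 in ischemic and -1.15 in healthy tissue. Of 12 genes listed as other vascular adhesion genes, 0 were called in either region, with medians of -0.03 and -0.05. Their brightest were Icam5 (-0.09 ± 0.22 in core, -0.08 ± 0.26 in penumbra) and Cd47 (0.18 ± 0.16 and 0.00 ± 0.08). Icam5 is a gene of neurons rather than of the vessel wall, so its ratio does not describe vessels. Madcam1, the mucosal addressin, was called higher in ischemic core than in ischemic penumbra (1.02 log2) and missed the call between the healthy pieces (0.93).

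Genes that mark endothelial cells in general lay close to 0. All 20 endothelial identity genes were measured in both regions, 0 were called, and their medians were 0.07 in core and below 0.01 in size in penumbra. The brightest, Itm2a and Ptprb, had 0.19 ± 0.04 and -0.11 ± 0.02 in core and 0.27 ± 0.11 and -0.07 ± 0.10 in penumbra. Their summed intensity was 59900 to 62060 in ischemic core and 61560 to 61670 in healthy core, and 54140 to 57490 in ischemic penumbra and 55190 to 55360 in healthy penumbra. The 5 junction genes summed to 10230 to 12300 in ischemic core and 9728 to 9825 in healthy core, and to 11260 to 11320 in ischemic penumbra and 9882 to 11340 in healthy penumbra, the ischemic and healthy penumbra ranges overlapping. This sum is weighted to its brightest gene, Cldn5, whose ratio carried a dye effect. In core Cldn5, Cdh5 and Tjp1 had means above 0, and Ocln and Pecam1 below it. Of 13 transport genes of the blood-brain barrier, 0 were called, the brightest being the glucose transporter Slc2a1 (-0.05 ± 0.51 in core, 0.06 ± 0.51 in penumbra) and the lipid transporter Mfsd2a (-0.20 ± 0.11 and -0.004 ± 0.26). The highest ratio of that list was that of the monocarboxylate transporter Slc16a1, 0.84 ± 0.20 in core (1.79-fold) and 0.87 ± 0.25 in penumbra (1.83-fold), above 1.5-fold on all 4 arrays but short of a call. Among endothelial regulators 0 of 19 in core and 0 of 20 in penumbra were called, with medians of 0.21 and 0.05. The brightest were the flow-responsive factor Klf2 (0.03 ± 0.15 and 0.23 ± 0.02) and the plasminogen activator Plat (0.25 ± 0.09 and 0.00 ± 0.16).

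**Figure D4:**
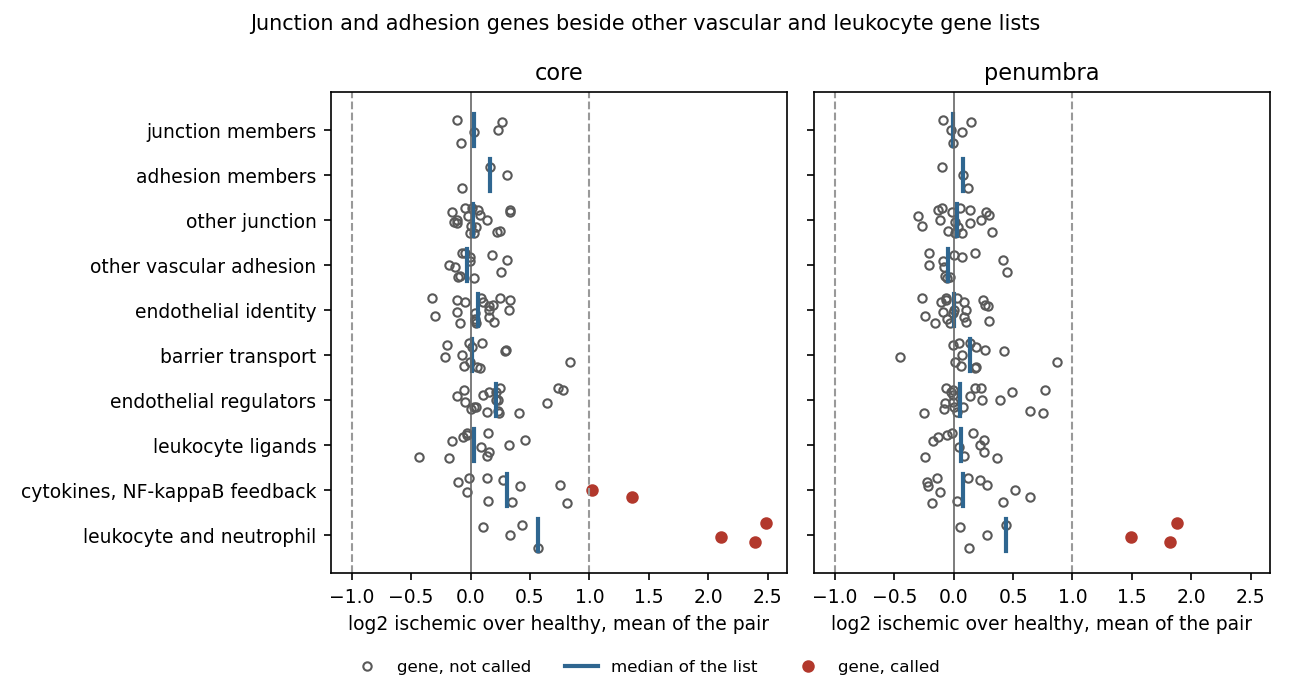
Log2 ratio of ischemic over healthy tissue, mean of the pair (x axis), of every measured gene of 10 lists (rows), core left and penumbra right; blue bars are list medians, red points called genes and dashed lines 2-fold. The junction and adhesion genes and the other vessel wall lists sit around 0 with 0 called genes, and the called genes are in the 2 lowest rows.

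Called genes were found in the lists of cytokine and NF-kappaB feedback genes and of leukocyte and neutrophil markers. These lists were chosen with earlier results of these data known, so their calls are description only. Of 12 cytokine and NF-kappaB feedback genes, 2 were called in core and 0 in penumbra, beside 0.31% and 0.245% of all features. Nfkbiz, an inducible regulator of NF-kappaB, had 1.36 ± 0.08 in core and 0.64 ± 0.01 in penumbra, and Il1b, an interleukin that induces endothelial adhesion molecules, had 1.02 ± 0.01 and 0.52 ± 0.02. The brightest genes of that list, Nfkbia (-0.03 ± 0.30 and -0.12 ± 0.13) and Rela (0.13 ± 0.18 and 0.12 ± 0.17), did not pass. Of 7 measured leukocyte and neutrophil markers, 3 were called higher in each region, beside the same shares of all features. S100a9 had 2.49 ± 0.06 in core and 1.88 ± 0.23 in penumbra, S100a8 had 2.39 and 1.82 ± 0.01, and Retnlg had 2.11 ± 0.06 and 1.5 ± 0.16, the first 2 being calcium-binding proteins abundant in neutrophils. The other measured markers, Ptprc, Ngp, Cxcr2 and Mpo, were not called. In that order they had 0.43, 0.56, 0.33 and 0.11 in core and 0.44, 0.13, 0.28 and 0.06 in penumbra. Ngp was well above background on 0 arrays in healthy core and 1 in healthy penumbra, and Cxcr2 on 1 in each. On Agilent's processed signals, without the added offset, the 4 core means were 0.51, 2.67, 1.24 and 0.26 in the same order. The penumbra means were then 0.50, 0.78, 1.29 and 0.11. Of 12 leukocyte ligands of the adhesion genes 0 were called, with medians of 0.03 and 0.07. The brightest were Glg1 (-0.06 ± 0.13 and -0.13 ± 0.10), an E-selectin ligand, and Selplg (-0.43 ± 0.14 and -0.24 ± 0.11), which encodes the P-selectin ligand.

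Platelets carry P-selectin and PECAM-1 as well, and 6 of 7 platelet markers were measured in each region, with 0 called and medians of 0.09 and 0.11. Pf4 had 0.54 ± 0.28 in core and 0.54 ± 0.10 in penumbra, and Gp9 had 0.21 ± 0.10 and 0.18 ± 0.05. These are the brightest markers; of the 6 measured, 3 had means above 0 and 3 below it in core, and 5 above and 1 below in penumbra, the lowest being Itga2b in core (-0.15 ± 0.03) and Gp5 in penumbra (-0.15 ± 0.15). The summed intensity of the list, weighted to its brightest genes, was 2256 to 2352 in ischemic core and 1687 to 1883 in healthy core, and 1798 to 1830 in ischemic penumbra and 1435 to 1480 in healthy penumbra, without overlap in either region. This sum was higher in ischemic tissue of both regions, whereas Selp was above 0 in core and below it in penumbra and Pecam1 below it in both. The defining marker Gp1ba was not well above background. The part of platelets in the ratios of Selp and Pecam1 was not tested.

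Marker lists of other cells had 0 called genes between ischemic and healthy tissue: 12 mural cell, 7 microglia, 5 astrocyte, 5 neuron, 3 red blood cell and 8 meningeal fibroblast markers, and 6 choroid plexus markers in core and 8 in penumbra. The choroid plexus and meningeal markers nevertheless lay apart in penumbra. The choroid plexus markers had a median of -0.02 log2 in core and of 0.58 in penumbra, where all 8 were above 0, from 0.43 to 0.97. The meningeal markers had medians of -0.10 in core and 0.38 in penumbra. The penumbra ratios of the junction and adhesion genes come from these same pieces, and the part of this difference in them was not tested. All 5 astrocyte and all 5 neuron markers were measured in both regions.

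The scale of the ratios bears on every sign given above. Loess sets the centre of all features to 0, and the 10 spike-in control probes then had a median log2 ratio of 0.47 in core and 0.46 in penumbra. Scaled to those probes, all 8 genes had means below 0 in both regions: Icam1 became -0.16 in core and -0.39 in penumbra, Cldn5 -0.21 and -0.32, Cdh5 -0.24 and -0.48, Selp -0.31 and -0.56, Tjp1 -0.45 and -0.39, Vcam1 -0.55 and -0.35, Ocln -0.56 and -0.47, and Pecam1 -0.59 and -0.56. None met the size of a call. The calls over all features split as 76 higher and 0 lower in core and 60 higher and 1 lower in penumbra on the reported scale, and as 31 higher and 29 lower in core and 29 higher and 41 lower in penumbra on the spike-in scale. The signs of the ratios are thus relative to the bulk of measured transcripts, and the order of the genes within a region does not depend on that choice.

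**Figure D5:**
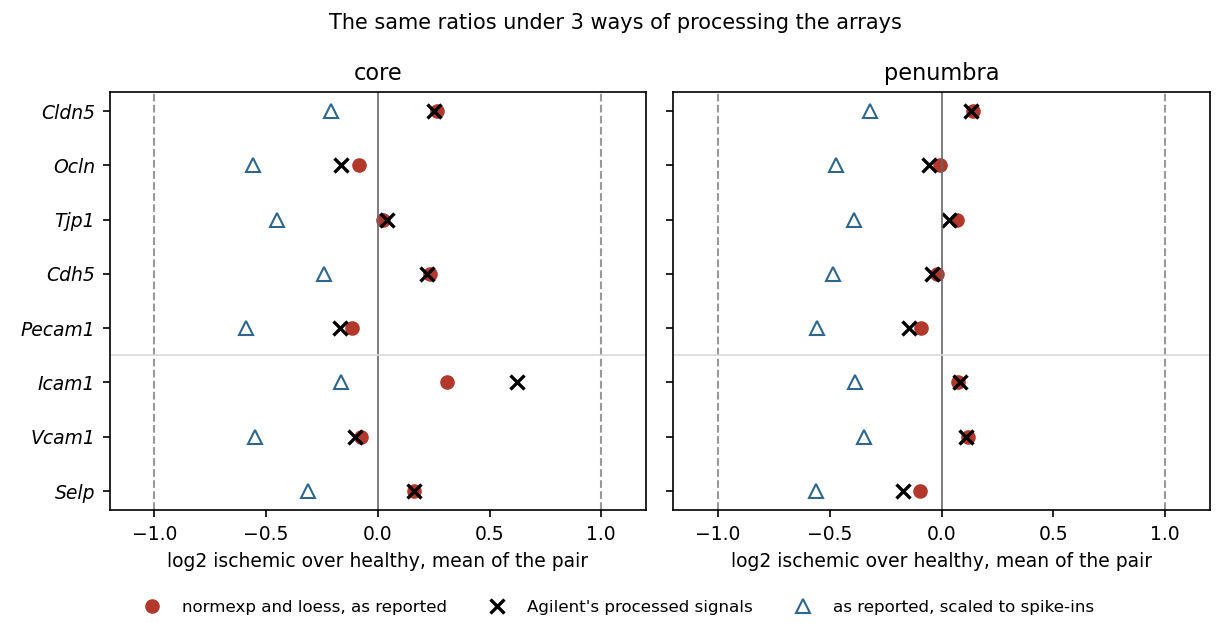
Mean log2 ratio of ischemic over healthy tissue (x axis) of the 8 genes (rows), core left and penumbra right, as reported (red circles), on Agilent's processed signals (crosses) and as reported but scaled to the spike-in probes (triangles); dashed lines mark 2-fold. Only the core ratio of Icam1 moves far with the processed signals, the triangles all lie below 0, and no point reaches a dashed line.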

How the data were processed

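RNA of ischemic and healthy tissue was hybridised to 4 two-colour Agilent arrays on 1 slide. Per the file headers, the authors deposited spot intensity values extracted with Agilent Feature Extraction 11.0.1.1, and the deposited series table holds the log10 ratio of Cy5 over Cy3 processed signals, which matched the scanner files. The direction of each ratio was taken from the labels' dyes. Mean spot signals were not used here; median signals were background-corrected with normexp (offset 50) and loess-normalized within arrays, and Aquantile was applied for single channels, in limma 3.58.1 (R 4.3.3); Python 3.11.15 with pandas 2.3.3, numpy 2.4.6 and matplotlib 3.10.9 did the rest. Control and outlier spots were left out, spots of a probe averaged, and the brightest probe stood for a gene. A probe was kept for a region if both arrays marked it well above background in at least 1 tissue.

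The median signal of an array ranged over 182.5 to 213 for Cy3 and over 268 to 290.5 for Cy5, over backgrounds of 64 to 71, with 76.1% to 79.4% of spots well above background and 0 saturated; the small number of arrays limits the precision. Calls went by size, since a dye-swapped pair is 1 replicate. The calling steps were tested on simulated data. The members and gene lists were chosen with earlier results of these data known. Named beside the members were the called genes of each list (up to 4 per comparison), its 2 brightest genes, and the 3 genes nearest to the widest-ranging member in centred channel values; Gp1ba, Itga2b, Gp5 and Slc16a1 were named after their values were seen. Alternatives covered background correction, normalization, scale, filter, probe choice, single arrays, single dyes and limma.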

Additional observations from a re-analysis of the deposited data

Results flagged for a closer look

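For 2 genes, every core array lay on one side of 0 and every penumbra array on the other. Selp was above 0 on both core arrays and below it on both penumbra arrays, with a core minus penumbra difference of 0.26 log2. Vcam1 was below 0 on both core arrays and above it on both penumbra arrays, with a difference of -0.19. Under median centring its penumbra mean was 0.01 and the difference -0.08. The second Vcam1 probe was not below 0 on core array 1, at 0.002. The difference between regions was not tested over separate animals; over arrays, limma with a dye coefficient gave adjusted p-values of 0.0373 for Selp and 0.106 for Vcam1.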

How the results depend on the processing

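None of the 8 genes was called in any comparison under any alternative that was run. The mean over probes covered only 6 of them, as Ocln and Selp did not pass the background filter there. Of 342 values of single genes under alternatives, 41 moved by more than the SD between arrays. Among the 342, 36 changed sign, 9 of these 36 under the spike-in scaling and none of them a called value. Many of the 342 had little or no room to move. The filter changes and limma fits returned the main values, and single arrays or dyes are parts of the mean they were compared with. Moves came to 16 of 24 values under spike-in scaling, 9 of 16 without Aquantile and 9 of 40 on processed signals. Median centring moved 6 of 24 and the mean over probes 1 of 30. Counts over all features differed on Agilent's processed signals, where background correction, dye normalization and offset change together: these called 245 features in core, 219 in penumbra, 179 for the difference of the regions, 861 between healthy and 1037 between ischemic pieces, against 76, 61, 15, 282 and 337. Leaving out 1 array gave 24 to 35 calls for the difference. Cy5 alone gave 464 calls between healthy pieces, Cy3 alone 546 between ischemic pieces, and limma over arrays without a dye coefficient 2 for the difference. The cause was not tested. Without the second normalization step (Aquantile), Vcam1 was 0.07 between healthy and -0.12 between ischemic pieces. No analysis paired by animal was run, because the labels do not say which animals each array stands for. Arrays of the 2 regions were matched by dye only. Signal over background limits Icam1 and Ocln, both dim, and Sele, which was not detected; each region is 1 pair of arrays, so no spread between animals was measured.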
